A study of Mus musculus with 10 samples.

Results

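The respiratory chain genes are 101 of the 34573 genes in the count table. They were chosen by symbol alone, by a rule set with earlier results of these data known. It takes every row that begins with Nduf, Uqcr, Cox4 to Cox8 or Atp5, without pseudogenes marked -ps, and the mt-Nd, mt-Co, mt-Cytb and mt-Atp rows. Of these, 88 are encoded in the nucleus and 13 in the mitochondrial genome, and the 2 sets are described apart. After a filter on low counts, 78 nuclear and 12 mitochondrially encoded members were tested, among 12193 genes. RNA was sequenced from naive T cells, taken from the spleen of 6-week-old mice by a sort for TCRb and high CD62L that left out CD25 and CD44 positive cells. The 5 groups, of 2 libraries each, were CD8 and CD4 cells of wild-type mice, called WT CD8 and WT CD4, and from OB11/OB11 mice the fractions CD4lo, DP and CD4hi, with low CD4, with both coreceptors and with high CD4. The title of the series concerns the autoregulatory loop of ThPOK, the CD4 lineage factor encoded by Zbtb7b. What the OB11 allele changes is not given in the sources used here.

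Complexes I, III and IV of the inner mitochondrial membrane pass electrons from NADH to oxygen and pump protons, and complex V, the ATP synthase, uses the proton gradient to make ATP. A few core subunits of complexes I, III, IV and V are encoded in mitochondrial DNA, transcribed as long precursors from both strands, while most subunits are nuclear genes whose proteins are imported. Resting naive T cells are known to draw their ATP mainly from this chain, and glycolysis rises when they are activated.

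Library totals ran from 5055956 to 7417789 counts, and tested members had 9 (Ndufaf6) to 2699 (Atp5b) counts per library if nuclear and 491 (mt-Nd3) to 58752 (mt-Co1) if mitochondrially encoded. WT CD4 2 with 25272 genes above 0 and CD4hi 1 with 23545 stood apart from the other libraries, which had 15532 to 17345. A letter L marks the titles of all libraries of CD4lo and of WT CD4 and of no other group. A difference between marked and unmarked groups and a difference by mark cannot be told apart, while CD4lo against WT CD4, DP against CD4hi, DP against WT CD8 and CD4hi against WT CD8 compare libraries of equal mark. The sort was visible in the counts, since the WT CD4 libraries had 612 and 671 CPM of Cd4 and 0.711 and 3.61 of Cd8a, the WT CD8 libraries 1.75 and 4.03 of Cd4 and 601 and 606 of Cd8a, and the DP libraries 256 and 260 of Cd8a. Here CPM means counts scaled to a common library size by TMM, with n = 2 libraries per group. Whether a group's libraries stem from different animals is not given by the labels, and the p-values therefore cover only the spread between these libraries, which may be technical. In bulk RNA, fewer cells of a type and less RNA per cell cannot be told apart.

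The 12 tested mitochondrially encoded members were mostly far above the 78 tested nuclear ones per length. Their median level was 1256 CPM per kilobase of exon against 18.7 for the nuclear members, a ratio of 67.2. mt-Atp6, a subunit of the proton channel of the ATP synthase, had the highest level at 6157 CPM per kb, and mt-Nd6, which lies alone on the other strand, the lowest of the 12 at 250. mt-Nd4l, which failed the filter, was at 0.91. Among nuclear members the medians were 15.8 CPM per kb for complex I, 23.8 for complex III, 43.2 for complex IV and 23.3 for complex V. The 6 Ndufaf genes, which assemble complex I and are no subunits of it, had a median of 3.43. Per kilobase of exon the highest level belonged to the accessory subunit Ndufa2 in complex I (51.5) and to the hinge protein Uqcrh in complex III (92.5). In complex IV it belonged to Cox7a2l (104), which joins complexes into supercomplexes, and in complex V to Atp5a1 (102), the alpha subunit of the catalytic head. With the longest transcript as length, Ndufb10 (59.9) was above Ndufa2 (51.5) and Atp5b (187) above Atp5a1 (119), while Uqcrh and Cox7a2l stayed highest.

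Where a complex IV subunit has isoforms of other tissues, the general form carried nearly all counts. Per length the general forms had 25.6 (Cox7a2) to 98.2 (Cox8a) CPM per kb, and the others 0.021 (Cox6a2) to 0.38 (Cox6b2). Cox4i1 stood at 76.1 to 127 CPM across the 10 libraries, while Cox4i2, known from lung, had 11 counts in all. Of Cox6a2, Cox7a1 and Cox8b, the forms of heart and skeletal muscle, each had 1 count over all libraries, where Cox6a1 had 40.9 to 79.9 CPM, Cox7a2 19.8 to 31.9 and Cox8a 49.2 to 81.8. Cox6b2 and Cox8c had 28 and 5 counts, and Cox7b2 had 9. Ndufa4, counted with complex I by its name but since assigned to complex IV, stood at 10.8 to 17.5 CPM, and Ndufa4l2 had 3 counts. All of the low forms were among the 11 members that failed the filter, with Atp5s, Atp5l2 and mt-Nd4l. A count of 0 in a library allows up to 3 counts, so forms at 0 in a library were not detectable at this depth, which does not show that they are absent. The c subunit of the ATP synthase rotor, which Atp5g1, Atp5g2 and Atp5g3 all encode with different targeting peptides, came from all of its genes, at 4.32, 9.70 and 16.0 CPM per kb.

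The mitochondrial genes have near-identical copies in the nuclear genome, which bears on how their reads can be counted. Of the 13 members, 7 had a copy of at least 97% identity over at least 150 bases in GENCODE M21. mt-Nd4l, a small subunit of complex I, had 0 to 6 counts per library although it lies beside mt-Nd4 with 1459 to 1766 CPM, and its chromosome 1 copy Gm10222, identical over 294 bases, had 7 to 27. The first 90 bases of both are shown because no base tells them apart, at chrM:9877-9966 (plus strand) and chr1:24612611-24612700 (minus strand), build GRCm38, which is mm10.
mt-Nd4l: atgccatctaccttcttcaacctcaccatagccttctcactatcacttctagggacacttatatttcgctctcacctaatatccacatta
Gm10222: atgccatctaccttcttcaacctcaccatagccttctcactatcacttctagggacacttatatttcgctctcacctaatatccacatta
mt-Co1, the catalytic subunit of complex IV, has a full-length copy on chromosome 2, Gm13340, with 97.6% identity over 1545 bases. The first 90 bases differ at 3 places, in capitals, at chrM:5328-5417 (plus strand) and chr2:22589558-22589647 (minus strand).
mt-Co1: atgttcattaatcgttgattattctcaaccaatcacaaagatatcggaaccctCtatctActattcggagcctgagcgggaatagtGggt
Gm13340: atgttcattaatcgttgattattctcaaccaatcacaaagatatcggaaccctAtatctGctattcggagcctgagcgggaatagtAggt
Gm13340 had 4 to 20 counts in the 4 libraries with the L mark and 90 to 181 in the 6 without it. The transfer RNA genes mt-Tg and mt-Tw also split by mark. mt-Tg had 63 to 228 counts in marked and 10 to 24 in other libraries, and mt-Tw 3 to 19 and 36 to 64. mt-Tv, picked along with them, overlapped, with 3 to 24 counts in marked and 0 to 6 in other libraries. The edgeR adjusted p across the 5 groups was 1.95e-07 for Gm13340, 2.48e-05 for mt-Tg, 0.000186 for mt-Tw and 0.0322 for mt-Tv. That p compares the groups and is no test of the mark. The share of all genes that split by mark was not counted. For mt-Atp6, mt-Co2 and mt-Co3 the copies on chromosome 1 are identical over 678, 681 and 783 bases and are not counted in the table under their own names. The same holds for mt-Nd4 over 876 bases. mt-Nd3 has an uncounted copy on chromosome 1 of 99.7% identity over 345 bases. mt-Atp8 (chrM:7766-7969) overlaps the start of mt-Atp6 (chrM:7927-8607), so reads of the overlap can fall to either. The part of the mark, the copies or the overlap in the results below was not tested.

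Across the 5 groups few nuclear members and 6 mitochondrial ones passed the test. By edgeR's quasi-likelihood F test with Benjamini-Hochberg adjustment, 7 of 78 nuclear members (8.97%) and 6 of 12 mitochondrial members (50%) passed an adjusted p of 0.05, against 25.8% of all 12193 genes tested. These sets differ in level, with a median of 1290 CPM over mitochondrial members, 29.8 over nuclear members and 17.3 over all genes tested. The part of level in these shares was not tested. The nuclear members that passed were Ndufa10, Ndufb4 and Ndufs1 of complex I, Cox5b, Cox6a1 and Cox7c of complex IV, and Atp5g2 of complex V. None of the 8 complex III genes or the 6 Ndufaf genes passed by edgeR or by DESeq2, with 5 and 0 of them at an unadjusted p under 0.05. So were 23 of the 78 nuclear members and 4622 of all 12193 genes, by edgeR. The mitochondrial members that passed were mt-Nd2, mt-Nd3, mt-Cytb, mt-Co1, mt-Co2 and mt-Co3. Differences were small in size: the ratio of the highest to the lowest group mean had a median of 1.28 over nuclear and 1.27 over mitochondrial members. It was under 1.5 for 67 of 78 and 11 of 12, and largest for Ndufb6 (2.19) and mt-Nd3 (1.52). The nuclear count fell to 4 without WT CD8 2, to 4 without CD4lo 2 and to 3 by DESeq2, and rose to 12 without WT CD4 2 and CD4hi 1 together and to 15 without the filter on low counts. The mitochondrial count fell to 1 without DP 1 and to 3 without DP 2.

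Summed over the genes, mitochondrial messages made up the largest share of counts in WT CD4 and the smallest in DP. They took 2.52% and 2.47% of counts in the WT CD4 libraries and 2.01% and 2.07% in DP. The other libraries lay between, from 2.14% in CD4hi 2 to 2.33% in WT CD8 2. Nuclear members took 0.333% (CD4hi 1) to 0.396% (CD4lo 2). Both DP libraries, at 0.359% and 0.380%, lay above both WT CD8 libraries, at 0.347% and 0.355%, and the other pairs of groups overlapped. The most abundant symbol held 11.1% to 16.4% of counts. With it and the mitochondrial genes left out of the totals, DP, at 0.5076% and 0.5348%, still lay above WT CD8, at 0.4746% and 0.4845%. On that base DP also lay above WT CD4, at 0.5048% and 0.4667%, and CD4hi, at 0.4951% and 0.5102%, above WT CD8. Mitochondrial over nuclear counts gave a ratio of 7.13 ± 0.230 (SD, n = 2) in WT CD4, 6.47 ± 0.138 in WT CD8, 6.28 ± 0.528 in CD4hi, 5.95 ± 0.340 in CD4lo and 5.52 ± 0.113 in DP. DP was the lowest group for 11 of the 12 tested mitochondrial genes and WT CD4 the highest for 6. Among nuclear members CD4lo was most often the highest group (25 of 78) and WT CD8 most often the lowest (31 of 78). How often each group was highest or lowest over all genes was not counted. The libraries of a group were not alike in their nuclear members: 56 of 78 were higher in WT CD4 1 than in WT CD4 2, 57 were higher in DP 2 than in DP 1 and 61 higher in CD4lo 2 than in CD4lo 1.

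**Figure D1:**
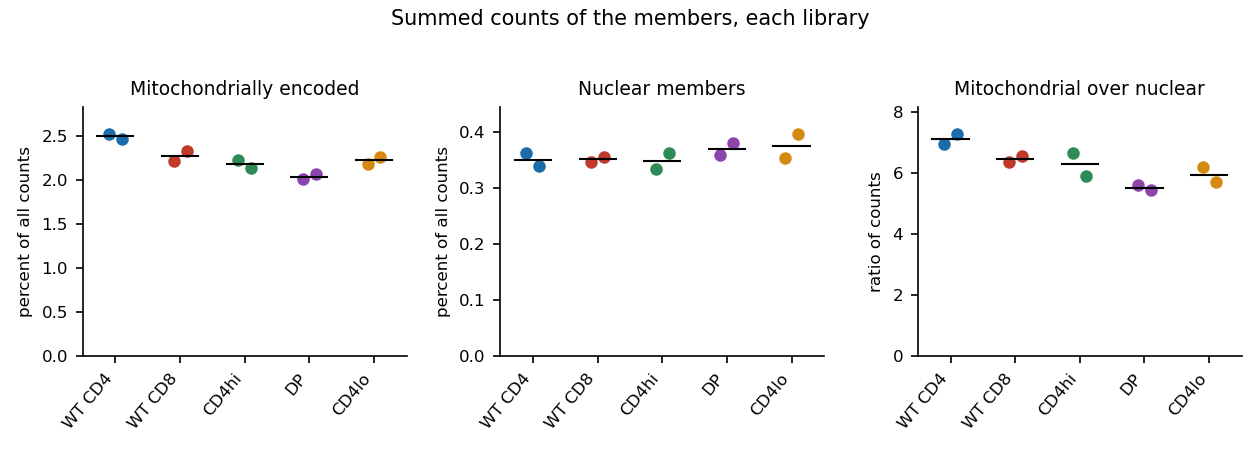
Summed counts of the mitochondrially encoded members (left) and nuclear members (middle) as a percent of all counts, and their ratio (right), with 1 point per library and a bar at the mean of each group's 2 libraries. The WT CD4 libraries have the highest mitochondrial shares at 2.52% and 2.47%, and the DP libraries the lowest at 2.01% and 2.07%.

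Complex I, which takes electrons from NADH, had 37 tested nuclear members, of which 3 passed across the groups. Ndufa10, an accessory subunit of the membrane arm on chr1:92439010-92473860, was low in WT CD4. It stood at 47.1 and 52.5 CPM in WT CD4, 64.9 and 67.2 in CD4lo, 65.8 and 72.7 in DP, 65.5 and 64.5 in CD4hi and 66.2 and 70.4 in WT CD8. Both WT CD4 libraries were below all 8 others, with an edgeR adjusted p of 0.00484 across groups. CD4lo against WT CD4, libraries of equal mark, gave a log2 difference of 0.40 ± 0.088 (SE; adjusted p = 0.00574). Without WT CD4 1 the adjusted p across groups was 0.0561, the highest over the alternatives. Ndufs1, an iron-sulfur subunit that carries electrons through the peripheral arm (chr1:63143596-63176833), was highest in WT CD8 at 60.1 and 52.5 CPM. The other groups had 42.8 and 43.9 in WT CD4, 49.0 and 48.6 in CD4hi, 45.7 and 42.7 in CD4lo and 43.7 and 46.0 in DP. Ndufb4, another accessory subunit of the membrane arm (chr16:37647170-37654453), was at 29.1 and 24.9 CPM in WT CD4 and 26.5 and 30.3 in CD4lo, below its values of 35.6 and 37.8 in CD4hi, 31.0 and 37.2 in WT CD8 and 33.9 and 41.5 in DP. The marked libraries of Ndufb4 thus lay below all libraries without the mark. The calls of Ndufs1 (adjusted p = 0.0311) and Ndufb4 (0.0364) were lost with DESeq2 (0.306 and 0.199). Ndufs1 also lost it without WT CD8 1 (0.281), DP 1 (0.0573), WT CD4 1 (0.0503) or WT CD4 2 (0.0504), and Ndufb4 without DP 2 (0.105), WT CD4 2 (0.0927), CD4lo 1 (0.0762), CD4hi 2 (0.0681) or WT CD8 2 (0.0521). A copy of Ndufb4, Ndufb4c, is identical over 390 bases, so its counts are uncertain.

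Complex III, which passes electrons from ubiquinol to cytochrome c, had no member past the threshold across groups. At an unadjusted edgeR p under 0.05 were 5 of its 8 genes, 23 of all 78 nuclear members and 4622 of all 12193 genes. Uqcrb, a small subunit needed for the assembly of complex III, came closest with an adjusted p of 0.0516. Its level was 52.6 and 42.1 CPM in WT CD4, 37.4 and 41.1 in CD4lo, 34.8 and 38.6 in DP, 38.1 and 41.0 in CD4hi and 33.4 and 34.3 in WT CD8. Both WT CD4 libraries were above all others. Without WT CD4 2 the adjusted p was 0.0151, and over all alternatives it ran from 0.012 to 0.335. Uqcrb has 3 processed pseudogenes of at least 97.3% identity over 225 bases.

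In complex IV, cytochrome c oxidase, 3 of 11 tested nuclear members passed, and Cox6a1 and Cox7c were highest in CD4lo. Cox6a1 (chr5:115345642-115348981), a regulatory subunit, stood at 60.2 and 79.9 CPM in CD4lo, 63.6 and 51.7 in WT CD4, 47.8 and 47.8 in CD4hi, 40.9 and 45.3 in WT CD8 and 56.4 and 49.99 in DP. CD4lo overlapped WT CD4 and lay above the 3 other groups (adjusted p = 0.00991 across groups). Without CD4lo 2, its highest library, that p was 0.0556. Cox7c (chr13:86044816-86046904), a small structural subunit, was at 30.0 and 33.1 CPM in CD4lo and between 19.2 and 25.9 in the 8 other libraries, with no overlap (adjusted p = 0.0157). Cox5b (chr1:36691449-36693681), a zinc-binding subunit, had its highest values in DP at 53.0 and 55.1 CPM. In the other groups it had 39.6 and 35.8 in WT CD4, 40.6 and 51.3 in CD4hi, 42.9 and 45.8 in WT CD8 and 46.2 and 42.3 in CD4lo (adjusted p = 0.0293). The calls of Cox7c and Cox5b were lost by DESeq2 at 0.135 and 0.199. They were also lost without WT CD8 2 (0.0524 and 0.0589) and without CD4lo 2 (0.133 and 0.0502), that of Cox7c also without CD4lo 1 (0.0519) and that of Cox5b also without WT CD4 2 (0.11), WT CD8 1 (0.0585), DP 1 (0.115) or DP 2 (0.183). Copies of over 99% identity exist for both genes, with 0 counts for that of Cox5b and 0 to 6 for that of Cox7c.

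In complex V, 1 of 16 tested nuclear members passed. Atp5g2 (chr15:102662864-102672352), a gene of the rotor's c subunit, was at 10.3 and 11.7 CPM in WT CD4, 14.2 and 12.9 in CD4lo, 19.3 and 17.6 in CD4hi, 18.2 and 18.7 in WT CD8 and 17.4 and 22.2 in DP. Here too the 4 marked libraries lay below the 6 others. The adjusted p across groups was 0.00553, and it stayed under 0.05 in all alternatives that were run. CD4lo against WT CD4, of equal mark, gave 0.30 ± 0.17 (adjusted p = 0.268). The sister genes Atp5g1, at 16.0 to 29.0 CPM, and Atp5g3, at 28.7 to 39.3, had adjusted p of 0.45 and 0.968. The head subunits Atp5a1 and Atp5b had group means of 291 to 340 and of 325 to 379 CPM, with adjusted p of 0.148 and 0.22.

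**Figure D2:**
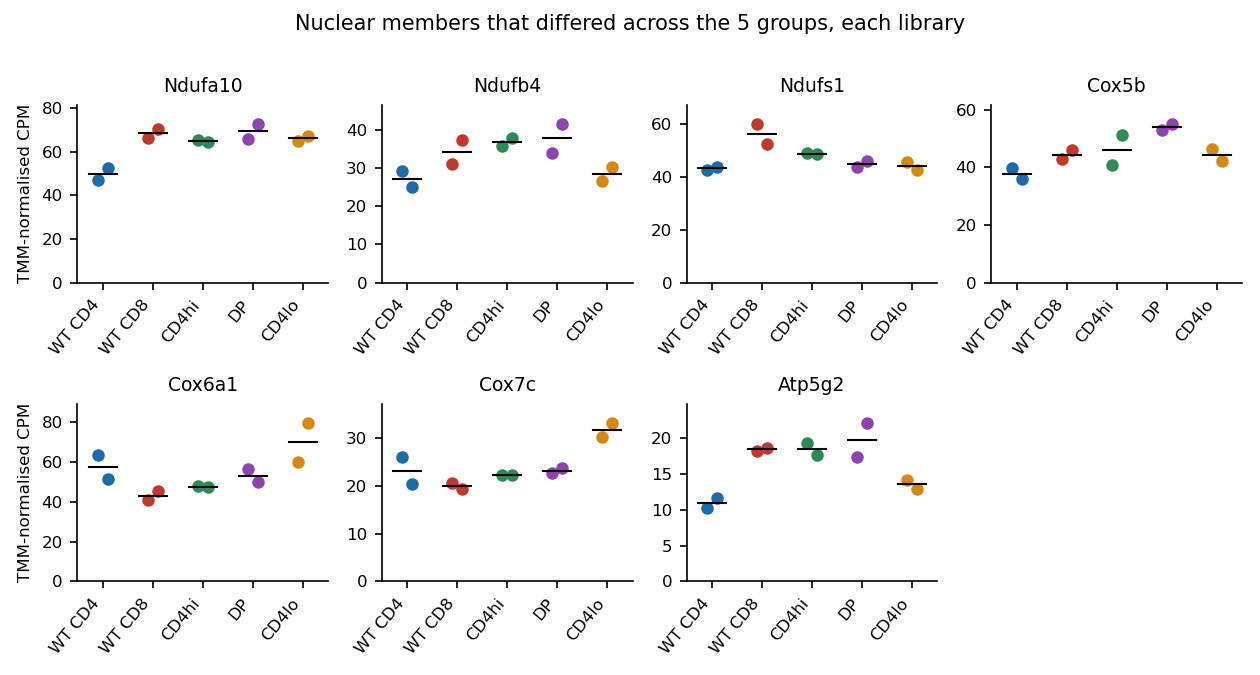
The 7 nuclear members with an adjusted p under 0.05 across the 5 groups, in TMM-normalised CPM, with 1 point per library and a bar at the mean of each group's 2 libraries. Ndufa10 is low in both WT CD4 libraries at 47.1 and 52.5 CPM, and Cox7c is high in both CD4lo libraries at 30.0 and 33.1 CPM.

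Atp5g2 and Cox6a1 are those of these 7 genes whose promoters hold the core motif of NRF1, a factor known to bind promoters of respiratory genes. The promoters are printed because the motif stands at different distances from the start site in them, 250 bases before to 50 after the RefSeq start site, build GRCm38.p6, 5′ to 3′ on the gene's strand, with matches in capitals. They lie at chr15:102670998-102671297 and chr5:115348909-115349208, both on the minus strand.
Atp5g2: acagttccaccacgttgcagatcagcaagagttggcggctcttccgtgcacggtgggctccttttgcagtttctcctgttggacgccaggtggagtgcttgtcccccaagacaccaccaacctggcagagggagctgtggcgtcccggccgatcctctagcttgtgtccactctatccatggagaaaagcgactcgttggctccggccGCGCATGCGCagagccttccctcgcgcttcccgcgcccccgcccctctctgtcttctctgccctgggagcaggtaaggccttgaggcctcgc
Cox6a1: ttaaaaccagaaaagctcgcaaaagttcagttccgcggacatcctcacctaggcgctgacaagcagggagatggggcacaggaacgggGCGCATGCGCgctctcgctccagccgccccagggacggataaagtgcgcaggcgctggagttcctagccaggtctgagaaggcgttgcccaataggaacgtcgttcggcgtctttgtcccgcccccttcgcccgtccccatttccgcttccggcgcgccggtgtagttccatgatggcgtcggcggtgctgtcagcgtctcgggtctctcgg
The letters searched were CGCATGCGC for NRF1, CCGGAAGT for GABP, AAGATGGCG for YY1 and TCAAGGTCA for ERRA, on both strands, and the capitals above hold a match on each strand, which share all but 1 base at either end. Of the 88 nuclear members 72 had a promoter in the RefSeq table, with 78 promoters in all. NRF1 letters were in 12.8% of them and in 1.75% of all 32851 promoters of the same length. For YY1 the shares were 11.5% and 1.4%, for GABP 6.41% and 3.89% and for ERRA 1.28% and 0.423%. CCAAT was in 42.3% and 37.4%, and TATAAA in 10.3% and 13.6%. The motif was also in promoters of Atp5k, Atp5l, Ndufa8, Ndufa11, Ndufaf4, Ndufaf5, Uqcr11 and Uqcrc1, none of which passed across the groups. The promoters of Ndufa10, Ndufb4, Cox5b and Cox7c held none of the 4 factors' letters in this window, and Ndufs1 had no promoter in the table.

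The mitochondrially encoded genes ran mostly in the same direction, lowest in DP. mt-Co3, a subunit of complex IV that lies at chrM:8607-9390, was at 1348 and 1279 CPM in WT CD4, 1098 and 1221 in CD4lo, 913 and 1012 in DP, 1222 and 1085 in CD4hi and 1021 and 1114 in WT CD8. DP lay below every other library and WT CD4 above every other (adjusted p = 0.00597). mt-Cytb, the only complex III gene of the mitochondrial genome, was at 2471 and 2688 CPM in WT CD4, 2302 and 2107 in CD4lo, 1952 and 2066 in DP, 2470 and 2251 in CD4hi and 2089 and 2333 in WT CD8 (adjusted p = 0.0128). mt-Nd2 of complex I was at 956 and 1038 CPM in WT CD4 and 745 and 760 in DP, with 819 and 793 in CD4hi, 791 and 910 in WT CD8 and 934 and 809 in CD4lo (adjusted p = 0.0138). In each of these genes both WT CD4 libraries were above both DP libraries.

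mt-Nd3, a small subunit of complex I, had the highest ratio between group means, with 163 and 137 CPM in WT CD4, 100 and 97.01 in DP, 127 and 105 in CD4hi, 95.3 and 108 in WT CD8 and 112 and 152 in CD4lo (adjusted p = 0.0124). mt-Co2, which takes electrons from cytochrome c, was at 1305 and 1345 CPM in WT CD4, 1402 and 1397 in CD4lo, 1095 and 1134 in DP, 1368 and 1274 in CD4hi and 1201 and 1380 in WT CD8 (adjusted p = 0.0177). mt-Co1, at 7773 and 7828 in WT CD4, 7344 and 7737 in CD4lo, 6682 and 7042 in DP, 8225 and 7527 in CD4hi and 7494 and 7895 in WT CD8, was the most abundant of the complex IV messages (adjusted p = 0.0388). For mt-Co1 and mt-Co2 the DP libraries lay below all others, and for mt-Co2 both CD4lo libraries lay above all others. Of the 6, mt-Nd3 kept its call in every alternative and mt-Co3 lost it only without DP 1 (0.0567). mt-Co2 lost its call without DP 1 (0.171) or DP 2 (0.0927). mt-Co1 lost it without DP 1 (0.421), DP 2 (0.112), WT CD4 2 (0.0577) or WT CD8 2 (0.0577), with the replicate block (0.0526) and without the filter (0.0672), and mt-Nd2 without DP 1 (0.0614), DP 2 (0.0509) or WT CD4 2 (0.0625). mt-Cytb lost it without DP 1 (0.105) or WT CD4 2 (0.0523).

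The other mitochondrial genes did not pass across groups. mt-Nd1, mt-Nd4, mt-Nd5 and mt-Nd6 had adjusted p of 0.247, 0.0855, 0.104 and 0.459, where DESeq2 called mt-Nd4 (0.0346). In all 5 groups the library with more mt-Atp6 had less mt-Atp8. mt-Atp6 was at 5961 in WT CD4 1 and 4268 CPM in WT CD4 2, where mt-Atp8 was at 104 and 214, and in CD4lo mt-Atp6 was at 3390 and 4528 while mt-Atp8 was at 232 and 145. The remaining libraries held 3649 to 4323 CPM of mt-Atp6 and 111 to 191 of mt-Atp8. Their adjusted p were 0.0796 and 0.502, and without WT CD4 2 they became 0.000568 and 0.029. mt-Atp6 also passed without CD4lo 1 (0.035) or CD4lo 2 (0.0133), and without the filter on low counts mt-Atp6 and mt-Atp8 were at 2.4e-10 and 2.39e-06. Over all alternatives the highest adjusted p were 0.5 and 0.976.

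**Figure D3:**
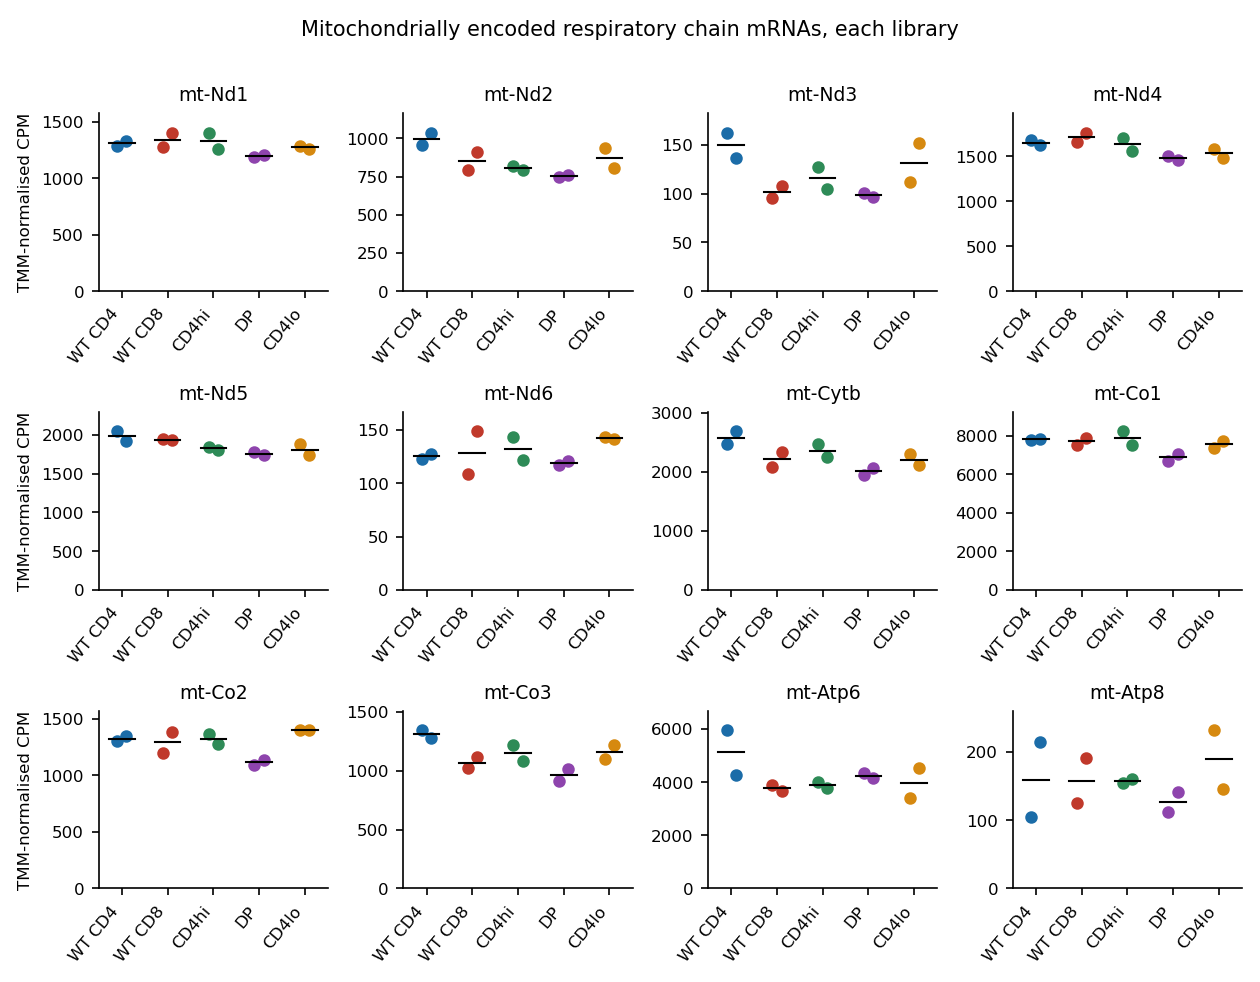
The 12 tested mitochondrially encoded members in TMM-normalised CPM, with 1 point per library and a bar at the mean of each group's 2 libraries. For mt-Co3 the DP libraries, at 913 and 1012 CPM, lie below all others, and mt-Atp6 spans 4268 to 5961 CPM within WT CD4.

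WT CD8 against WT CD4 compares the wild-type lineages, which also differ in the mark. In WT CD8, 4 nuclear members were higher and 5 lower, where 11.1% of all genes were higher and 10.6% lower. The higher ones were Atp5g2 (log2 difference 0.74 ± 0.17, adjusted p = 0.00535), Atp5sl (0.56 ± 0.16), Ndufa10 (0.45 ± 0.088) and Ndufs1 (0.37 ± 0.093). Atp5sl is named for the ATP synthase but is now known as an assembly factor of complex I. The lower ones were Ndufa3 (-0.56 ± 0.15) of complex I, the ATP synthase subunits Atp5k (-0.53 ± 0.16) and Atp5f1 (-0.32 ± 0.089), Uqcrb (-0.48 ± 0.12) and Cox6a1 (-0.41 ± 0.13). Ndufa3 was at 26.4 and 29.8 CPM in WT CD8 against 48.5 and 35.7 in WT CD4, and Atp5k at 20.4 and 21.2 against 35.2 and 25.7. In both genes the WT CD4 libraries differed from each other by more than the WT CD8 libraries did. Of the mitochondrial genes 4 were lower, mt-Nd3 (-0.56 ± 0.13), mt-Atp6 (-0.44 ± 0.13), mt-Co3 (-0.30 ± 0.078) and mt-Cytb (-0.22 ± 0.070), and none was higher. The median log2 difference was -0.074 over nuclear and -0.036 over mitochondrial members, and -0.027 over all genes. Calls over all genes also fell by DESeq2, from 1356 higher and 1295 lower to 968 and 790. The nuclear count of 9 became 3 without WT CD4 1, 2 without WT CD8 1, 4 without WT CD8 2 and 3 by DESeq2, and the mitochondrial count became 2 without WT CD4 1 and 0 without WT CD8 1. Of 16 alternatives, 10 lost the call of mt-Cytb and 9 that of Cox6a1. All 12 B cell markers were higher in WT CD8, with sums of 265 to 281 CPM against 37.3 to 62.1 in WT CD4, and so were 3 of 11 macrophage and 3 of 7 dendritic cell markers. Their part in this comparison was not tested.

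CD4hi against WT CD4 compares mutant and wild-type cells with much CD4. Of the nuclear members 4 were higher and none lower, against 10.4% and 6.43% of all genes. They were Atp5g2 (0.74 ± 0.17, adjusted p = 0.00743), Ndufa10 (0.38 ± 0.089), Ndufb4 (0.45 ± 0.14) and Ndufs8 (0.50 ± 0.14). Ndufs8, an iron-sulfur core subunit of complex I, was at 23.1 and 24.9 CPM in CD4hi and 17.4 and 16.7 in WT CD4, with no overlap. Only mt-Nd2 was lower (-0.31 ± 0.081, adjusted p = 0.0169) among the mitochondrial genes, and 9 of 12 had a difference below 0. Medians were 0.025 over nuclear, -0.071 over mitochondrial members and 0.0045 over all genes. By DESeq2 none of the 4 nuclear calls was made, and the count was 2 without WT CD4 1, 2 without CD4hi 1 and 1 without CD4hi 2. mt-Nd2 was not called without CD4hi 2 (0.0701), CD4hi 1 (0.0566) or WT CD4 2 (0.0912), where the mitochondrial counts were 0, 1 and 2. That count was 3 without CD4lo 1 and 3 without CD4lo 2. Of 16 alternatives, 7 lost the call of Ndufb4 and 7 that of Ndufs8.

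DP against WT CD4 gave the most mitochondrial calls. All 12 tested mitochondrial genes had a difference below 0, with a median of -0.26 against -0.0090 for all genes, and 7 passed the test, where 8.06% of all genes were lower and 11.1% higher. mt-Nd3 fell by 0.60 ± 0.13 on the log2 scale (adjusted p = 0.00522), mt-Co3 by 0.45 ± 0.078 (0.000911), mt-Nd2 by 0.41 ± 0.081 (0.00251) and mt-Cytb by 0.36 ± 0.070 (0.00219). mt-Co2 fell by 0.25 ± 0.067, mt-Co1 by 0.18 ± 0.050 and mt-Nd5 by 0.17 ± 0.055. Nuclear members had a median of 0.097 with 50 of 78 above 0, and 5 were higher and 1 lower by the test. The higher ones were Atp5g2 (0.84 ± 0.17), Cox5b (0.52 ± 0.11), Uqcrq (0.50 ± 0.14), Ndufb4 (0.49 ± 0.14) and Ndufa10 (0.47 ± 0.087), and Uqcrb was lower (-0.36 ± 0.12). Uqcrq, a small subunit of complex III, was at 33.4 and 36.7 CPM in DP and 25.8 and 23.9 in WT CD4. The mitochondrial count was 4 without DP 1, and the nuclear count 2 without DP 2 and 3 by DESeq2. The call of Uqcrb (adjusted p = 0.0419) was lost in 13 of 16 alternatives, DESeq2 (0.201), the replicate block (0.0583) and only the 4 libraries compared (0.0751) among them, with a highest value of 0.377. That of mt-Nd5 (0.0402) was lost in 10 of 16, at up to 0.355 without the filter. mt-Co1 and mt-Co2 were lost without DP 1 (0.215 and 0.167), WT CD4 2 (0.0708 and 0.0788) and the filter (0.106 and 0.0611), and mt-Co2 also without DP 2 (0.089).

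Genes of other cells moved with DP in the same comparison. The summed level of 13 macrophage markers was 169 to 181 CPM in DP and 17.2 to 24.6 in WT CD4, with 10 of 11 tested markers higher. B cell markers summed to 181 to 208 CPM in DP, 265 to 281 in WT CD8 and 37.3 to 62.1 in WT CD4, with 10 of 12 higher in DP than in WT CD4. No macrophage or B cell marker in the table was at 0 in all libraries. Cell cycle genes summed to 764 to 787 CPM in DP, 772 to 786 in CD4hi and 431 to 477 in WT CD4, with 12 of 21 tested higher in DP. Their part in the mitochondrial result was not tested.

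DP against the groups of equal mark gave no call. Against WT CD8, 11 of 12 mitochondrial genes were below 0 with a median of -0.16, and against CD4hi 11 of 12 with a median of -0.18, where medians over all genes were 0.0086 and -0.012. mt-Co1 was -0.17 ± 0.050 against WT CD8 (adjusted p = 0.0636) and -0.20 ± 0.050 against CD4hi (0.0688), and mt-Co2 was -0.21 ± 0.067 (0.0796) and -0.25 ± 0.067 (0.112). In both comparisons edgeR called 0 mitochondrial members, with 6 at an unadjusted p under 0.05 in each, while DESeq2 called 2 against WT CD8 and 1 against CD4hi. The exception to the direction was mt-Atp6, at 0.17 ± 0.13 and 0.12 ± 0.13. Nuclear members had 0 calls in either comparison by edgeR and by DESeq2, with 14 of 78 against WT CD8 and 7 against CD4hi at an unadjusted p under 0.05 and medians of 0.15 and 0.080. Of all 12193 genes, 2304 and 1340 were at an unadjusted edgeR p under 0.05. All genes were called higher in 4.57% and lower in 2.28% of cases against WT CD8, and in 0.763% and 0.861% against CD4hi. Against WT CD8 there was 1 mitochondrial call without WT CD8 1, and 2 without each of WT CD4 1, CD4hi 1, CD4hi 2, CD4lo 1 and CD4lo 2. There was 1 nuclear call without each of WT CD4 1, WT CD4 2 and WT CD8 2. Against CD4hi there was 1 mitochondrial call without WT CD4 1.

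CD4lo against WT CD4 joins libraries of equal mark. Of 78 nuclear members 3 were higher and 0 lower, against 8.82% and 7.02% of all genes. At an unadjusted edgeR p under 0.05, in either direction, were 13 nuclear members and 3604 of all 12193 genes. The calls were 3 in number. The nuclear members called higher were Ndufa10, Cox7c (0.45 ± 0.13, adjusted p = 0.0334) and Cox7a2l (0.33 ± 0.085, adjusted p = 0.0148). Cox7a2l was at 163 and 179 CPM in CD4lo and 139 and 131 in WT CD4, with no overlap, and shares 201 identical bases with the pseudogene Gm6969. Complex IV as a whole had 9 of 11 members above 0 with a median of 0.275, against 0.11 over all nuclear members and -0.016 over all genes. Among mitochondrial genes mt-Cytb alone was lower (-0.23 ± 0.070, adjusted p = 0.0415), and the median was -0.12. The nuclear count was 8 without WT CD4 1, 7 without CD4lo 1 and 1 without CD4lo 2. mt-Cytb was not called without CD4lo 2 (0.377) or WT CD4 2 (0.237) or with only the 4 libraries compared (0.109), and its call was lost in 12 of 16 alternatives, including the replicate block (0.0595) and the other TMM scaling (0.0513). The mitochondrial count was 2 without WT CD4 2 and 0 without each of WT CD8 1, CD4hi 1, CD4hi 2, DP 1 and DP 2. The gamma delta T cell markers summed to 124 to 125 CPM in CD4lo and 1.24 to 7.18 in the other groups, and the NK cell markers to 106 to 110 in CD4lo and 8.17 to 9.59 in WT CD4. Of those lists 5 of 5 and 4 of 5 tested genes were higher in CD4lo than in WT CD4, and their part in these results was not tested.

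CD4lo against CD4hi and against DP compares the OB11/OB11 groups with each other across the mark. Against CD4hi, Cox6a1 (0.54 ± 0.13, adjusted p = 0.022) and Cox7c (0.50 ± 0.14, adjusted p = 0.0387) were higher, both of complex IV, and no nuclear member was lower, where 2.76% and 4.27% of all genes were higher and lower. The mitochondrial median was 0.016, with 0 calls by edgeR and DESeq2 and 0 members at an unadjusted p under 0.05, where 2381 of all 12193 genes were. The nuclear count was 0 without CD4hi 1 or CD4lo 2, 1 without WT CD8 1 or WT CD8 2, 4 without CD4lo 1 and 5 without WT CD4 1 or WT CD4 2. The call of Cox7c was lost in 9 of 16 alternatives, with 0.0569 under the replicate block, and that of Cox6a1 in 3. Against DP, mt-Co2 was higher (0.33 ± 0.067, adjusted p = 0.00731) and 11 of 12 mitochondrial genes were above 0, with a median of 0.17. No nuclear member was called by edgeR or DESeq2, where 2.55% of all genes were higher and 3.64% lower. At an unadjusted edgeR p under 0.05 were 9 of 78 nuclear members and 2128 of all 12193 genes. mt-Co2 was not called without DP 1 (0.0941), which left 0 mitochondrial calls, and without CD4lo 1 there were 3 mitochondrial calls and 1 nuclear call. The mitochondrial count was 4 without WT CD4 1 or WT CD4 2 and 2 without CD4hi 1 or CD4hi 2, and the nuclear count 2 without WT CD4 1 and 3 without WT CD4 2.

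CD4hi and CD4lo were also compared with WT CD8. In CD4hi, Ndufb6 was the 1 nuclear member called, higher by 1.08 ± 0.29 (adjusted p = 0.0285), where 6.22% of all genes were higher and 3.69% lower. This accessory subunit of complex I was at 11.1 and 7.79 CPM in CD4hi, 3.10 and 5.51 in WT CD8, 6.57 and 6.11 in WT CD4, 5.80 and 6.50 in DP and 6.84 and 6.46 in CD4lo. Its call was lost without CD4hi 1 (0.271), WT CD8 1 (0.226) and by DESeq2 (0.123), and without WT CD4 2 there were 2 nuclear calls. In CD4lo, Cox6a1 (0.68 ± 0.13, adjusted p = 0.00543) and Cox7c (0.66 ± 0.14, adjusted p = 0.00838) were higher and Ndufs1 was lower (-0.34 ± 0.093, adjusted p = 0.0456), where 3.41% of all genes were higher and 2.08% lower. The nuclear median was 0.14 in CD4lo and 0.072 in CD4hi, against -0.0040 and 0.016 over all genes. Of all 12193 genes, 1937 in CD4lo and 2756 in CD4hi were at an unadjusted edgeR p under 0.05. The count for CD4lo was 1 without WT CD8 1, 1 without WT CD8 2, 0 without CD4lo 2, 5 without WT CD4 1 and 6 without WT CD4 2. The call of Ndufs1 was lost in 12 of 16 alternatives, including the replicate block (0.0589), DESeq2 (0.363) and only the 4 libraries compared (0.0766), with a highest value of 0.426 without WT CD8 1. No mitochondrial member was called in either comparison by edgeR or DESeq2, with 0 in CD4hi and 2 in CD4lo at an unadjusted p under 0.05, and without CD4lo 1 there was 1 call in CD4lo.

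**Figure D4:**
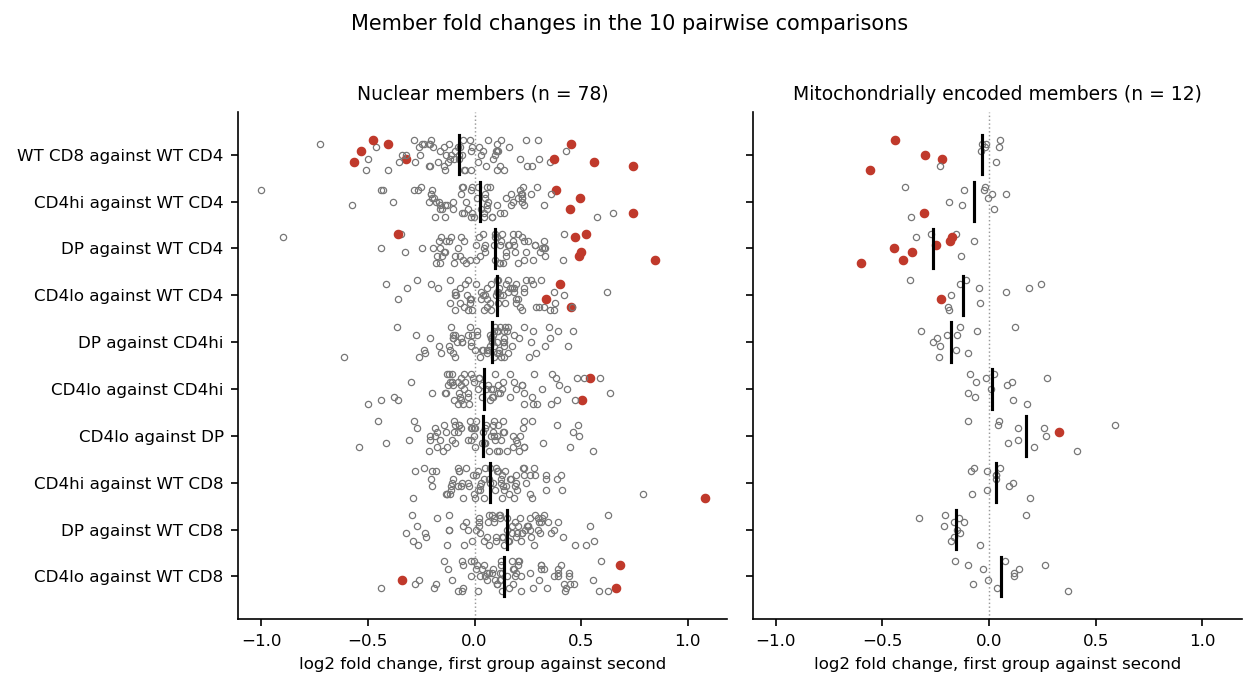
Log2 fold changes of the 78 nuclear (left) and 12 mitochondrially encoded (right) members in the 10 pairwise comparisons, with filled red points for an adjusted p under 0.05, open grey points for the others and black bars at the medians. All 12 mitochondrial points lie below 0 for DP against WT CD4, with 7 of them filled.

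Over the 10 comparisons there were 28 nuclear calls of 16 genes and 14 mitochondrial calls of 8 genes. The libraries of the groups did not overlap in any of them, but the share of all genes without overlap was not counted, so this adds no support. Of these calls 22 and 13 were in the comparisons against WT CD4, which share its 2 libraries. Of the calls 4 nuclear ones and 1 mitochondrial one were between libraries of equal mark. The comparisons against WT CD4 also had the most calls over all genes.

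Other genes that serve the chain were described from lists. Of the carriers and the ATP synthase inhibitor, 2 of 9 tested passed across groups. Slc25a4, which exchanges ADP and ATP across the inner membrane, was low in WT CD4 at 45.3 and 40.0 CPM, against 66.0 and 82.3 in CD4hi, 90.8 and 82.8 in WT CD8, 87.5 and 82.7 in DP and 71.2 and 82.4 in CD4lo. It gave 0.85 ± 0.12 in CD4lo against WT CD4, of equal mark (adjusted p = 0.000122), and 5.99e-05 across groups. Usmg5, a small ATP synthase subunit not matched by the symbols, was the other (adjusted p = 0.0324). Of 19 tested genes of mitochondrial transcription, replication and RNA, 2 passed, Ssbp1 (adjusted p = 0.049) and Polg. Polg, the catalytic subunit of the mitochondrial DNA polymerase, was high in WT CD4 at 110 and 92.0 CPM, against 57.2 to 70.3 in the 8 other libraries (adjusted p = 0.000145). In CD4lo against WT CD4 it was -0.65 ± 0.099 (adjusted p = 0.000296).

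Assembly factors of complexes III to V passed in 2 of 18 cases, with Cox10, which makes heme for complex IV, lowest in WT CD4 at 17.9 and 20.98 CPM and at 24.2 to 34.6 elsewhere (adjusted p = 0.0123), and Coa3 (0.03). Other complex I assembly factors passed in 0 of 7 and coenzyme Q genes in 0 of 11 by edgeR and by DESeq2, with 2 and 1 at an unadjusted p under 0.05, where 4622 of all 12193 genes were. Of complex II and cytochromes c and c1, 1 of 9 passed. It was Sdhaf1, a complex II assembly factor, at 28.8 and 20.4 CPM in WT CD4, 20.2 and 24.2 in CD4hi, 16.0 and 16.1 in DP, 12.7 and 13.9 in CD4lo and 10.1 and 11.6 in WT CD8 (adjusted p = 0.000829). The tricarboxylic acid cycle had 1 of 17 (Pdhb), the mitochondrial ribosome 6 of 75 and the regulators of respiratory genes 2 of 10 (Pprc1 and Myc). These shares ran from 0% to 22.2%, beside 25.8% of all genes. Mitochondrial ribosomal and transfer RNA genes had 4 of 9 tested (44.4%). They summed to 139900 to 149100 CPM in CD4hi and 112900 to 131000 in the other groups. Mitochondrial ribosomal RNA held 11.2% to 14.1% of counts. Glycolysis had 10 of 21 (47.6%). Among the 10 were Gapdh (adjusted p = 0.000351), Pkm (0.000624), Ldhb (0.000855) and Pfkp (0.00131). Gapdh averaged 90.7 CPM in WT CD8, 126 in WT CD4, and 100, 129 and 135 in CD4lo, DP and CD4hi, where Pkm averaged 179, 269, 225, 266 and 284. Pfkp ran differently, with 81.3 in WT CD4 and 110 to 113 in the other groups.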

How the data were processed

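RNA of sorted naive mouse T cells was sequenced in 10 libraries, 2 in each of 5 groups taken from the titles. Libraries were made from 10 ng of RNA with a directional kit that depletes ribosomal cDNA, per the labels' protocols. The values deposited by the authors are unnormalized counts of reads for each gene. TopHat2, HTSeq and mm10 are named in the submitters' processing notes. The annotation and strand setting of the counting are not given in the sources used here.

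Counts were filtered by edgeR's filterByExpr, scaled by TMM and tested by edgeR 4.0.16 (R 4.3.3) with the quasi-likelihood F test in 1 fit of all 10 libraries. p-values were adjusted by Benjamini-Hochberg over 12193 genes, with a threshold of 0.05. The tested genes held 99.7% of counts. The SE is the log2 difference divided by the root of F. No exact permutation test was run, since 2 libraries against 2 cannot give a p below 0.333. Copies were searched with BLAST 2.17.0. The procedure was tested on simulated data.

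The members and gene lists were chosen with earlier results of these data known. Members past the threshold across groups or in a comparison are named with their values. Other genes of the lists that passed are named only in part, some without values. Those of the mitochondrial ribosome, the cell type markers and the cell cycle are given by counts or sums alone. Alternatives were DESeq2 1.42.0, another scaling, no filter, a replicate block, only the compared libraries and leaving out libraries. Gene positions and lengths are from GENCODE M21 (GRCm38), which matched all 101 symbols. Atp5sl and Atp5l2 were matched by synonym, as Dmac2 and as Atp5l2-ps, a processed pseudogene that the count table does not mark as such. Promoters are from RefSeq.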

Additional observations from a re-analysis of the deposited data

How the results depend on the processing

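No direction reversed. DESeq2 called 3 nuclear members across groups, and in the comparisons 3 for WT CD8 against WT CD4, 0 for CD4hi and 3 for DP against WT CD4, 1 for CD4lo against CD4hi, 0 for CD4hi and 1 for CD4lo against WT CD8. Its mitochondrial counts moved to 1 for DP against CD4hi, 2 for CD4lo against DP and 2 for DP against WT CD8. Without the filter, 15 nuclear members were called across groups, 11 for DP and 7 for CD4lo against WT CD4, 4 for CD4lo against CD4hi, 2 for CD4lo against DP and 1 for DP against WT CD8. The mitochondrial counts were then 3 for CD4hi and 2 for CD4lo against WT CD4, 1 for CD4lo against CD4hi, 4 for CD4lo against DP, and 2 for DP and 1 for CD4lo against WT CD8.

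Fitting only the 4 libraries compared gave 2 nuclear calls for CD4hi against WT CD4, 2 for CD4lo against DP, and 2 for CD4hi and 4 for DP against WT CD8, and mitochondrial counts of 0 for CD4lo against WT CD4, 1 for DP against CD4hi, 3 for CD4lo against DP and 4 for DP against WT CD8. TMM without mitochondrial genes and the most abundant symbol gave 1 nuclear call for DP against WT CD8, and mitochondrial counts of 0 for CD4lo against WT CD4, 2 for CD4lo against DP and 2 for DP against WT CD8. Leaving those genes out of the totals also moved the mean summed share from 0.359% to 0.501% for nuclear and from 2.24% to 3.13% for mitochondrial members. Some orders of group means reversed with it. The nuclear mean of CD4hi was 0.3476%, below WT CD8 (0.3508%) and WT CD4 (0.3504%). It became 0.5026%, above both (0.4796% and 0.4858%). The mitochondrial mean of CD4hi was 2.179%, below WT CD8 (2.271%), and became 3.156%, above it (3.104%). With the longest transcript as length the nuclear median was 27.3 CPM per kb. Without WT CD4 2 and CD4hi 1, an alternative chosen after seeing the data, 12 nuclear members were called across groups, 3 for CD4lo against DP, and 0 for CD4hi, 3 for DP and 6 for CD4lo against WT CD8. The mitochondrial counts were then 2 for CD4hi and 2 for CD4lo against WT CD4, 4 for CD4lo against DP, and 3 for DP and 1 for CD4lo against WT CD8. Calls over all genes moved as well. For DP against WT CD4 they were 1349 higher and 983 lower in the main fit. They were 913 and 545 by DESeq2, and 1504 and 899 without the filter. For all of these changes in counts the cause was not tested.

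Leaving out each of the 10 libraries in turn gave 4 to 10 nuclear and 1 to 7 mitochondrial calls across groups. Against WT CD4 the nuclear counts were 2 to 13 for WT CD8, 1 to 5 for CD4hi, 2 to 8 for DP and 1 to 8 for CD4lo, and the mitochondrial ones 0 to 4, 0 to 3, 4 to 7 and 0 to 2. For DP against CD4hi, CD4lo against CD4hi and CD4lo against DP they were 0 to 0, 0 to 5 and 0 to 3 nuclear, and 0 to 1, 0 to 0 and 0 to 4 mitochondrial. Against WT CD8 they were 0 to 2 for CD4hi, 0 to 1 for DP and 0 to 6 for CD4lo if nuclear, and 0 to 0, 0 to 2 and 0 to 1 if mitochondrial. A group left with 1 library was assumed to vary like the others. Calls over all genes also changed with the library left out, so a change in a member count alone is no trait of these genes.

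Whether the replicate numbers pair the libraries is not given by the labels. Of 10 correlations of same-numbered deviations, from -0.535 to 0.124, 2 were over 0.1. With 2 libraries per group these correlations cannot decide it. With the replicate block, 7 nuclear and 5 mitochondrial members were called across groups, 1 nuclear member for CD4lo against CD4hi and 0 mitochondrial ones for CD4lo against WT CD4, and the other counts stayed within 1.5 times, although single calls named in the comparisons were lost.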
